A study of Oryza sativa Indica Group and Oryza sativa Japonica Group with 12 samples.

Results

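Root-only regions are stretches of the rice genome that carried H3K27me3-associated chromatin loops in the roots of 2 varieties and no listed loop in the seedlings of either. They were found by merging overlapping loop anchors of the MH63 and ZS97 lists into 14152 regions and by summing, for each region and list, the paired-end tags (PETs) of all loops with an anchor midpoint in it. The regions were chosen by these PETs: a region was root-only when it had 10 or more PETs in both root lists and no loop in either seedling list. This held for 1027 regions, which is 14.0% of the 7358 regions with 10 or more PETs in both roots. The other 6331 of these, called shared regions below, had at least 1 listed seedling loop.

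Polycomb repressive complex 2 places the H3K27me3 mark on histones of genes that are kept off. In plants the mark covers many developmental genes and differs between tissues, as genes are silenced in one organ and released in another. Regions that carry the mark can lie close together in the nucleus. ChIA-PET reads such contacts by enriching chromatin with the mark, joining DNA ends held close together, and sequencing the ligated ends as a PET.

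The lists used came from roots of MH63 (Minghui 63), roots of ZS97 (Zhenshan 97), seedlings of MH63 and seedlings of ZS97, 2 varieties that the labels place in the indica group, with no treatment named. Each group had 2 replicates, and the authors deposited 1 list per group that holds both. The study's 12 samples also included Dongjin and osemf2b seedlings, whose lists are in another coordinate system, have no root counterpart and were not used. All tissue was cross-linked with formaldehyde and a second, longer cross-linker, and the labels give no plant age and do not say whether the seedlings still carried their roots. A seedling and a root also differ in their mix of cell types, so fewer cells with a contact and fewer contacts per cell cannot be told apart.

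The lists held 75056 loops and 695423 PETs in MH63 root, 110885 loops and 535937 PETs in ZS97 root, 86383 loops and 509524 PETs in MH63 seedling, and 90390 loops and 484060 PETs in ZS97 seedling. No listed loop had fewer than 2 PETs, and a contact below the authors' thresholds is not listed, so a region without a listed seedling loop is not shown to lack contacts there. With 1 list per group there is no spread between replicates, no test was made, and differences are described with 95% intervals that cover counting error only. PETs are amplified molecules and regions share loops, so the true errors are wider. All lists are in 1 coordinate system, so a difference in DNA sequence between MH63 and ZS97 cannot be told apart from one in looping. Coordinates are 1-based as the lists give them, and no gene names or sequences are given because no annotation of their build was used here.

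The PETs that chose the regions are given first, as a description. Root-only regions had a median of 41 PETs in MH63 root (39 to 44) and 32 PETs in ZS97 root (29 to 34). Shared regions had medians of 79 PETs in MH63 root (76 to 82) and 66 PETs in ZS97 root (63 to 69). The root-only regions ran from the minimum of 10 up to 1449 PETs in MH63 root and up to 1071 PETs in ZS97 root. Most were therefore modest, with a small number of strong ones: 247 had at least 50 PETs in both root lists, and 89 had at least 100.

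The root-only share of root regions was lower where there were more PETs, which are the depth behind each call. Among regions with 10 to 19 PETs in the lower of the 2 root lists, 23.6% were root-only (21.5 to 25.9). The share was 19.1% at 20 to 49 PETs (17.4 to 20.8), 11.3% at 50 to 99 PETs (9.68 to 13.1) and 3.98% at 100 PETs or more (3.21 to 4.88). Scaled to the total of the seedling lists, the median root-only region would have 30.0 PETs in MH63 and 28.9 PETs in ZS97. At the threshold, 50 regions had exactly 10 PETs in the lower root list, and 32 regions without a seedling loop fell just outside with 9. A further 71 root regions missed the rule by a single seedling loop of 2 PETs. These had medians of 35 PETs in MH63 root and 24 PETs in ZS97 root, close to those of the root-only regions, and reached up to 500 PETs in MH63 root and 573 PETs in ZS97 root.

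The absence of a seedling loop was more common than its mirror image. By the same rule turned round, 261 of 6126 regions with 10 or more PETs in both seedling lists had no loop in either root list (4.26%). Within 1 variety, 2207 of 9794 regions were root-only in MH63 (22.5%) and 2537 of 8619 in ZS97 (29.4%). In the other direction the counts were 644 of 7299 in MH63 (8.82%) and 801 of 7676 in ZS97 (10.4%). The root lists hold more PETs than the seedling list of the same variety, and the part of that difference in these counts was not tested.

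Root PETs of a root-only region varied together in the varieties, but less closely than those of shared regions. Across the 1027 root-only regions, Pearson's r of log2 PETs between MH63 root and ZS97 root was 0.68 and Spearman's rho was 0.63. Across the 6331 shared regions, r was 0.86 and rho was 0.85. Both are descriptions, since regions share loops and libraries and are not replicates, and the root-only regions cover a narrower range of PETs.

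**Figure D1:**
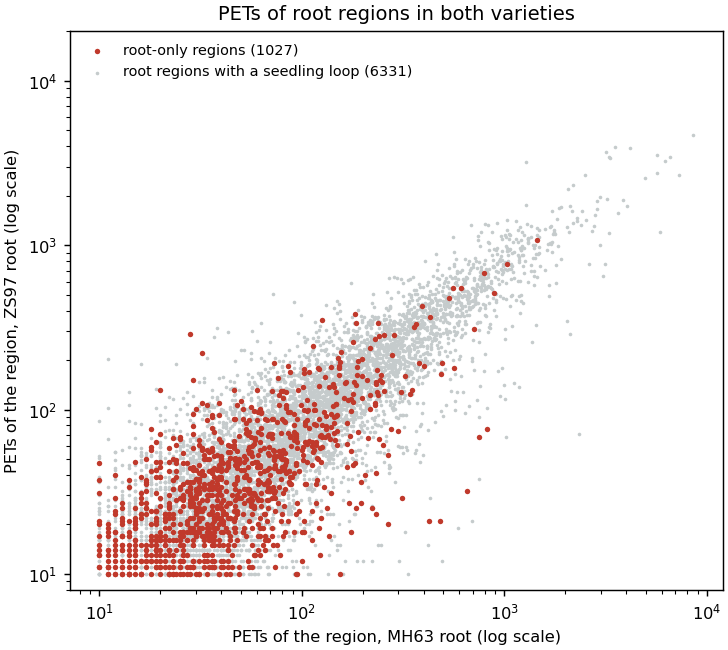
PETs of each region in MH63 root (x axis) and in ZS97 root (y axis), both on log scales, for the 1027 root-only regions (red) and the 6331 root regions with a seedling loop (grey). The root-only regions crowd at low values, from 10 PETs upward, and 1 of them reaches 1449 PETs in MH63 root and 1071 PETs in ZS97 root.

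The strongest root-only regions were few and carried a large part of the signal. The 10 with the highest level in the lower root list, each level taken per 100000 PETs of its list, held 9.91% of all PETs of root-only regions in MH63 root and 10.5% in ZS97 root. The first was chr12:19456834-19485252, with 1449 PETs in MH63 root, 1071 PETs in ZS97 root and no listed loop in either seedling. It reached 50 partner regions in MH63 root and 101 in ZS97 root. The second was chr11:16593408-16632784, with 1035 PETs in MH63 root and 768 PETs in ZS97 root. At 39377 bp it was also the widest root-only region, and it had 41 partners in MH63 root and 102 in ZS97 root.

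Chromosome 12 held 2 more of the 10. The region chr12:18609133-18624038 had 792 PETs in MH63 root and 675 PETs in ZS97 root. The region chr12:19394037-19407073 had 613 PETs in MH63 root and 552 PETs in ZS97 root, and its middle lies 70.5 kb from that of the leading region. PETs in the varieties were close for these, as they were for chr4:15558103-15580476, with 558 PETs in MH63 root and 545 PETs in ZS97 root. Per 100000 PETs of its list, this chromosome 4 region stood at 80.2 in MH63 root and 101.7 in ZS97 root.

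The region chr11:9689465-9703836 had 532 PETs in MH63 root and 479 PETs in ZS97 root, and chr3:30751451-30768898 had 428 and 366 PETs in the same lists. At chr9:7150856-7163226 there were 393 PETs in MH63 root and 427 PETs in ZS97 root. Per 100000 PETs of its list, this chromosome 9 region stood at 56.5 in MH63 root and 79.7 in ZS97 root. The remaining pair was higher in MH63 root on either scale. It was chr10:14761677-14789198, with 889 PETs in MH63 root and 511 PETs in ZS97 root, and chr8:16798787-16811784, with 705 PETs in MH63 root and 307 PETs in ZS97 root. By the rule, neither seedling list holds a loop at any of the 10. The nearest region with a seedling loop lay from 0.518 kb (chr9:7150856-7163226) to 38.3 kb (chr4:15558103-15580476) away. It was 0.536 kb from chr12:19394037-19407073. At the chromosome 9 region and at chr12:19394037-19407073 this close region was also the leading partner in both roots, so the call rests on where anchors end.

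The surroundings of the leading region were set beside those in seedlings. Counting loops with both anchors within 300 kb of its middle, MH63 root listed 110 loops with 2247 PETs and ZS97 root 122 loops with 1645 PETs. The same window held 9 loops with 42 PETs in MH63 seedling and 5 loops with 13 PETs in ZS97 seedling. The root totals include loops of root-only regions, which have no seedling loop by the rule. Without these loops, 46 loops with 1174 PETs remained in MH63 root and 37 loops with 651 PETs in ZS97 root, while the seedling values stay as given. Loops inside the window between regions that are not root-only were thus also few in seedlings. Loops that leave the window are not counted here, so the regions themselves need not be weak in seedlings. One of them, chr12:19371320-19393500, had 155 PETs in MH63 seedling and 139 PETs in ZS97 seedling over all its loops. Loops of 5 or more PETs, those of root-only regions included, numbered 83 in MH63 root and 69 in ZS97 root, against 4 in MH63 seedling and 1 in ZS97 seedling.

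**Figure D2:**
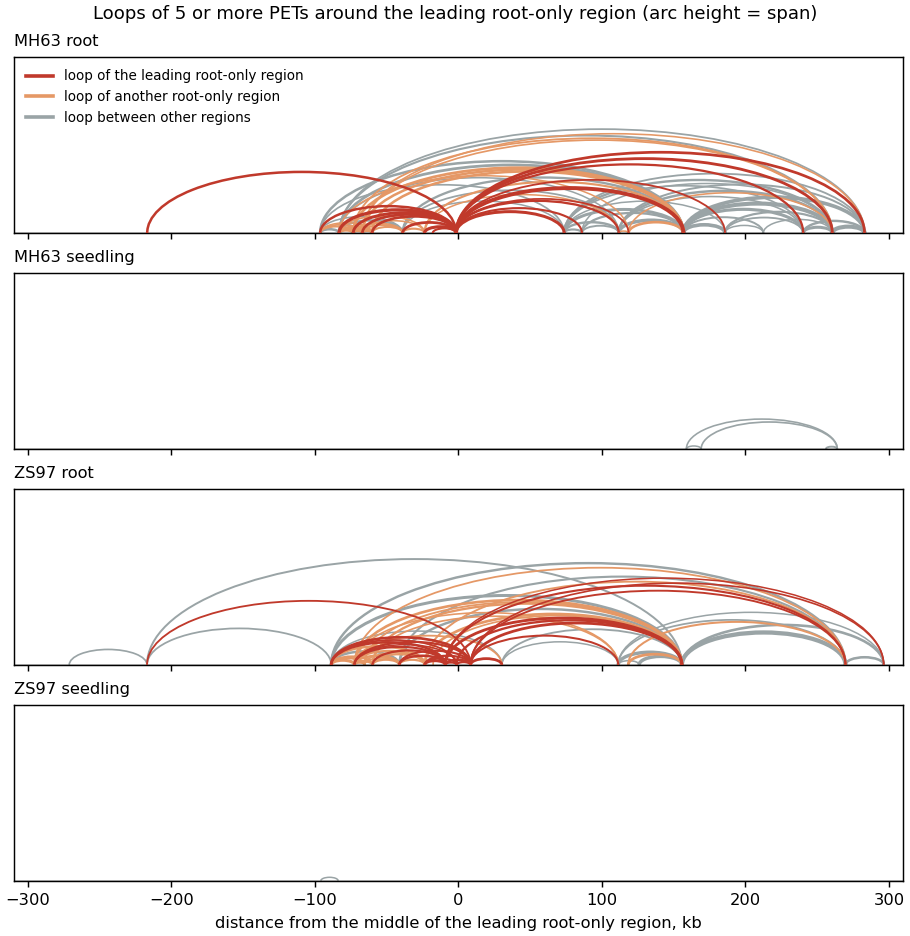
Loops of 5 or more PETs with both anchors within 300 kb of the middle of the leading root-only region, in each of the 4 lists. The x axis is the distance from the middle of the region in kb, arc height is the span, and colours mark loops of the leading region (red), of other root-only regions (orange) and between other regions (grey); 83 loops are drawn for MH63 root and 69 for ZS97 root, red and orange ones absent from seedlings by the rule, against 4 for MH63 seedling and 1 for ZS97 seedling.

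The surroundings of root-only regions in general were described with the 1469 shared regions that lie next to a root-only region along the chromosome. All their loops to root-only regions were removed, and their other loops of any span were kept. Their median log2 ratio of root over seedling PETs, scaled on the total PETs of each list, was 0.49 in MH63 (0.38 to 0.57), against 0.07 (0.03 to 0.13) for shared regions with no root-only neighbour. In ZS97 the medians were -0.07 (-0.15 to 0.01) next to a root-only region and -0.28 (-0.31 to -0.24) elsewhere. The ratio exceeded 1 in 63.7% of the regions next to a root-only region and 52.5% of the others in MH63, and in 47.5% and 38.2% of them in ZS97. The neighbours of root-only regions thus leaned more towards root in both varieties, although in ZS97 their median was not above 0. The ratios need listed loops in root and in seedling alike. Of the neighbours, 14.7% had no listed ZS97 seedling loop, against 10.7% of the other shared regions, and for MH63 seedling the shares were 1.50% and 1.67%.

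Root-only regions occurred on all 12 chromosomes, at shares that differed. Chromosome 4 had the highest, with 129 of 642 root regions (20.1%, 17.1 to 23.4), followed by chromosome 11 with 108 of 630 (17.1%) and chromosome 12 with 79 of 476 (16.6%). Chromosome 1 had the lowest, with 103 of 933 (11.04%, 9.10 to 13.2), and the remaining 8 ran from 12.1% to 13.8%. Chromosomes 11 and 12 together held 18.2% of root-only regions (15.9 to 20.7) and 14.5% of shared regions (13.7 to 15.4), against 11.1% of the 261 regions with the opposite pattern (7.57 to 15.6). The intervals of chromosomes 4 and 1 do not overlap, while those of chromosomes 4, 11 and 12 do.

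**Figure D3:**
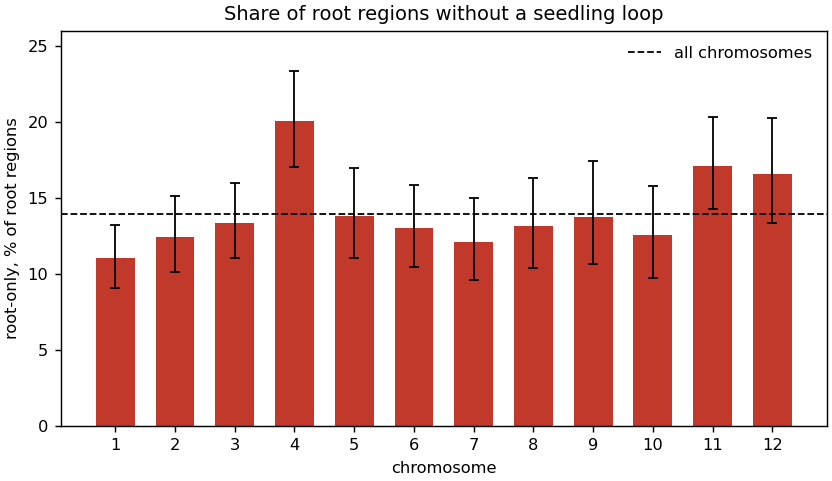
Root-only regions as a share of root regions on each of the 12 chromosomes, in percent, with 95% Clopper-Pearson intervals. Chromosome 4 stands at 20.1% and chromosome 1 at 11.04%; the dashed line is the share over all chromosomes.

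On chromosome 4 the root-only regions were concentrated in 1 stretch, which was chosen after its values were seen. Between 12 and 17 Mb, 51 of 110 root regions were root-only (46.4%, 36.8 to 56.1), against 78 of 532 on the rest of the chromosome (14.7%, 11.8 to 18.0). The rest includes 10 to 12 Mb, and the window from 10 to 15 Mb as a whole held 41 of 97 (42.3%). The rich part may therefore start before 12 Mb. The 51 regions had a median of 53 PETs in MH63 root and 47 PETs in ZS97 root, with 4246 and 4474 PETs in all. All 5 windows of 1 Mb in that stretch were rich, from 14 of 28 root regions at 12 to 13 Mb to 8 of 19 at 14 to 15 Mb. Elsewhere, the highest shares were at 4 to 5 Mb on chromosome 5 with 6 of 10 (26.2 to 87.8%) and at 19 to 20 Mb on chromosome 12 with 9 of 19 (24.4 to 71.1%). The latter is the window of the leading region. Both were picked as the highest of many windows with few regions each, and their intervals are wide. Over the 318 windows with at least 10 root regions the median share was 13.04%, and 28 windows had no root-only region.

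Root-only regions were less common towards the ends of chromosomes. Their share of root regions was 8.41% within 1 Mb of the outermost anchor of a chromosome (6.18 to 11.1), 11.7% from 1 to 5 Mb (10.4 to 13.1) and 15.6% beyond 5 Mb (14.6 to 16.7). The outermost anchor stands in for the chromosome's end, because chromosome lengths of the build were not used here.

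Neighbours along the chromosome tended to share the pattern. Of the neighbouring root regions on either side of a root-only region, 21.9% were root-only themselves (20.2 to 23.8), against 12.7% for a shared region (12.1 to 13.3). Neighbours were counted per side, so 2 adjacent root-only regions enter from both sides. These intervals are therefore too narrow even for counting error. The difference was wide for close neighbours. At gaps under 1 kb the shares were 30.8% next to a root-only region and 13.7% next to a shared one, at 1 to 5 kb 28.5% and 12.1%, and at 50 to 100 kb 19.5% and 12.1%. Beyond 100 kb they met, at 12.8% and 12.7%. The difference was present in every class of PETs. It ran from 19.3% against 11.8% for regions of 10 to 19 PETs to 34.8% against 13.1% for regions of 100 or more. The share next to a root-only region was the higher one on each of the 12 chromosomes, by a margin from 12.6% against 12.4% on chromosome 2 to 31.0% against 17.4% on chromosome 4.

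**Figure D4:**
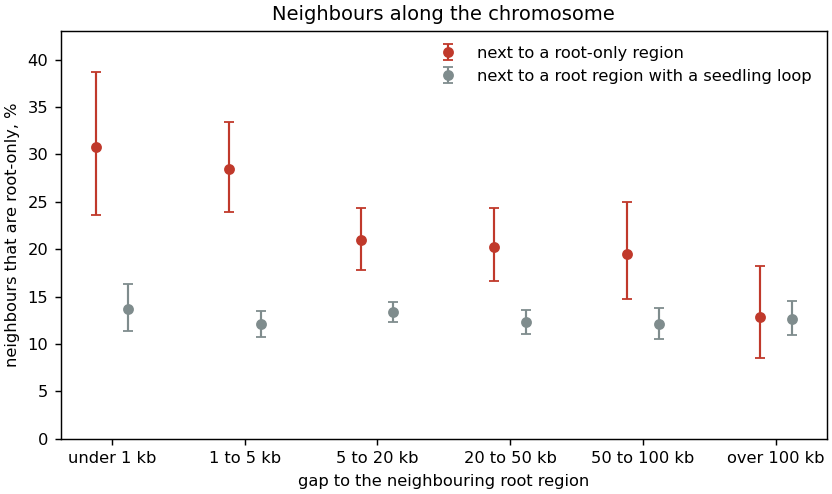
Share of neighbouring root regions that are root-only, in percent, next to a root-only region (red) and next to a root region with a seedling loop (grey), by the gap between the neighbours, with 95% Clopper-Pearson intervals. The shares are 30.8% and 13.7% under 1 kb and meet at 12.8% and 12.7% beyond 100 kb. Adjacent root-only regions are counted from both sides, so the intervals are too narrow.

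Joined over gaps of up to 100 kb, 621 root-only regions (60.5%) fell into 228 clusters. This share depends on the gap, at 42.6% over 50 kb and 93.2% over 500 kb. No share is given for an equal number of other root regions, so it does not by itself show clustering. Most clusters were small, with 143 pairs, 48 clusters of 3 regions and 16 of 4, and 21 clusters had 5 or more members. The largest was chr4:15462757-15762170, in which 12 of the 15 root regions over 299 kb were root-only. Its members had 1483 PETs in MH63 root and 1643 PETs in ZS97 root, from 10 to 558 PETs each in MH63 root and from 26 to 545 in ZS97 root. They were looped to one another by 30 loops with 214 PETs in MH63 root and by 39 loops with 321 PETs in ZS97 root. The shared regions inside the cluster were weak in seedlings. At chr4:15466831-15478972 there were 363 PETs in MH63 root and 372 in ZS97 root, against 8 in MH63 seedling and none listed in ZS97 seedling. At chr4:15507551-15519820 there were 306 and 329 PETs in the roots, against 22 PETs in each seedling list. The last, chr4:15631285-15636708, had 149 PETs in MH63 root and 15 in ZS97 root, against 8 in MH63 seedling and 7 in ZS97 seedling. In ZS97 it was thus weak in root as well.

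The next clusters by number of members lay on chromosomes 9, 4 and 6. At chr9:6882025-7173236, 8 of 14 root regions were root-only, with 1763 PETs in MH63 root and 1296 PETs in ZS97 root. At chr4:12879840-13008320 the count was 7 of 8, with 422 PETs in MH63 root and 418 PETs in ZS97 root. At chr6:23260786-23393702 it was 7 of 10, with 1831 PETs in MH63 root and 709 PETs in ZS97 root, and at chr6:6729045-6928426 it was 7 of 9, with 816 and 474 PETs in the same lists. A further cluster of 7, at chr8:13999973-14247648, had 453 PETs in MH63 root and 366 PETs in ZS97 root. Every one of these clusters had loops between its own members in both root lists, with 7 loops and 24 PETs in MH63 root and 3 loops and 9 PETs in ZS97 root at chr4:12879840-13008320, the fewest PETs of the 6.

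Root-only regions did not lie far from regions looped in seedlings. The nearest region with a seedling loop was at a median distance of 6.98 kb (6.17 to 7.71), within 1 kb for 11.8% of root-only regions, within 20 kb for 80.2% and within 100 kb for 98.8%. For these close pairs the call rests on where the authors' anchors end. No such distance is given for other root regions, so whether root-only regions lie closer or further than those was not tested.

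Root-only regions were narrow. Their median width was 2686 bp (2552 to 2828), against 5195 bp for shared regions (5051 to 5328). Only 29 of them (2.82%) spanned 10 kb or more, against 23.5% of shared regions. A region merged over 4 lists grows with the number of lists that have an anchor there. A wide root anchor also overlaps a seedling anchor more easily, and its region then counts as shared. Some of the difference in width can thus be built in by the rule, and how much was not tested. The anchors of single lists differed in the same direction. They had a median of 1948 bp for root-only and 3998 bp for shared regions in MH63 root, and of 2109.5 and 3868.5 bp in ZS97 root. The width went with PETs, and within each class of PETs the root-only regions were the narrower ones, from 1721.5 against 2104 bp at 10 to 19 PETs to 6906 against 12304 bp at 100 or more. The 1027 regions covered 3.597 Mb in all, against 53.7 Mb for the shared ones.

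After the widest, chr11:16593408-16632784, the broad root-only regions were chr12:19456834-19485252 with 28419 bp, chr10:14761677-14789198 with 27522 bp and chr4:15558103-15580476 with 22374 bp. The fifth, chr12:22262933-22283777, was 20845 bp wide and differed between varieties, with 427 PETs in MH63 root and 21 PETs in ZS97 root. In ZS97 root it had 153 tags at its anchor and 8 partners, against 8986 tags and 30 partners in MH63 root.

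The tags at an anchor, which count all reads there and not those of loops alone, were lower per length at root-only regions. The median was 355 tags per kb for root-only and 463 for shared regions in MH63 root, and 103 and 132 tags per kb in ZS97 root. The gap was small among weak regions and wider among strong ones. At 10 to 19 PETs the medians were 315 and 328 tags per kb in MH63 root and 83.8 and 84.8 in ZS97 root, and at 100 PETs or more they were 439 and 571 in MH63 root and 135 and 177 in ZS97 root. PETs per kb of anchor were not lower over all root-only regions, with medians of 23.9 for root-only and 19.6 for shared regions in MH63 root and of 16.1 and 16.0 in ZS97 root. No tags are listed for root-only regions in seedlings, since tags are given for anchors of listed loops only, so whether the mark itself was lower there was not tested.

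Most contacts of root-only regions were with regions that also loop in seedlings. Shared regions were at the other end of 82.7% of their PETs in MH63 root and 85.2% in ZS97 root. Shared regions also made up 6331 of the 7358 root regions, so a large share is no trait particular to root-only regions. The partner that took most of a region's PETs had a seedling loop for 951 of 1027 regions in MH63 root (92.6%) and for 930 in ZS97 root (90.6%), and no root-only region lacked a partner with a seedling loop. The same limit holds for these counts, which are not given for shared regions.

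Contacts among root-only regions were a minority, but larger than the share that shared regions sent to them. Other root-only regions took 9.55% of the PETs of root-only regions in MH63 root (9.34 to 9.76) and 9.89% in ZS97 root. They took 5.15% of the PETs of shared regions in MH63 root (5.11 to 5.19) and 4.96% in ZS97 root. The share was larger for strong regions, at 14.5% in MH63 root and 14.6% in ZS97 root for those of 100 or more PETs, against 6.19% and 5.96% for those of 10 to 19 PETs. Root-only regions also lie next to each other more often, as given above, and how much of the difference comes from short distances was not tested. At least 1 root-only partner was present for 58.6% of the root-only regions in MH63 root and 50.4% in ZS97 root, without a value for shared regions to set beside it.

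**Figure D5:**
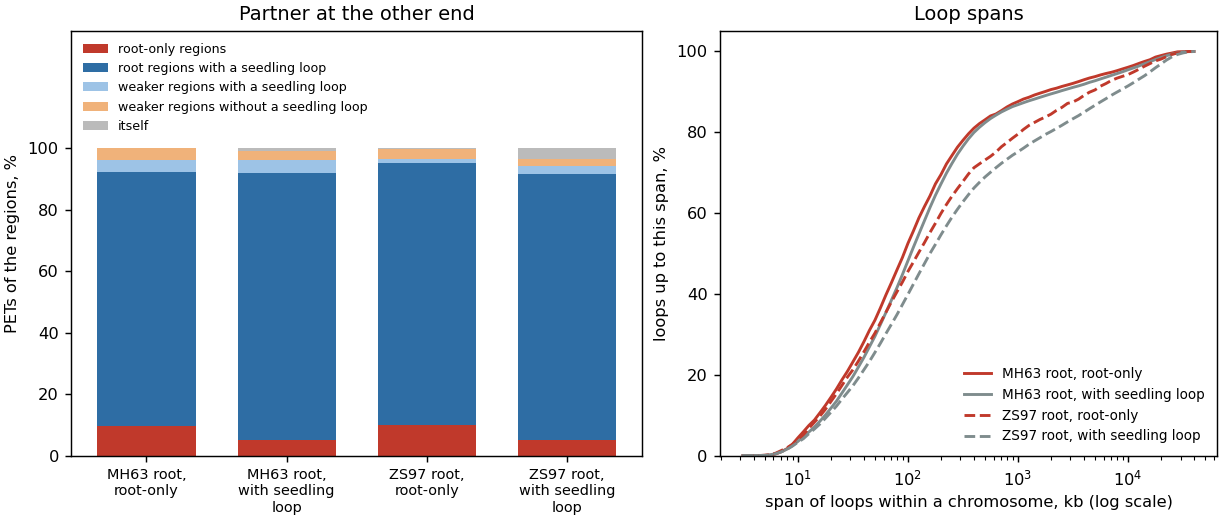
Left, PETs of root-only regions and of root regions with a seedling loop by the kind of region at the other end, in percent, for MH63 root and ZS97 root. Right, cumulative share of loops within a chromosome by span in kb (log scale) for the same sets; other root-only regions take 9.55% and 9.89% of the PETs of root-only regions against 5.15% and 4.96% for the other set, and the curves of root-only regions lie mostly to the left.

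Among the leading pairs within a chromosome, chr3:30751451-30768898 and its neighbour chr3:30772307-30795445 were joined by 323 PETs in MH63 root and 223 PETs in ZS97 root, over 23.7 kb. This neighbour was itself weak in seedlings, with 10 PETs in MH63 seedling and none listed in ZS97 seedling. The pair chr12:18609133-18624038 and chr12:18741909-18842915 had 191 PETs in MH63 root and 181 PETs in ZS97 root over 176 kb. Here the partner, a domain 101007 bp wide, was a strong seedling region, with 2323 PETs in MH63 seedling and 1925 PETs in ZS97 seedling. The same domain was the leading partner of chr12:19456834-19485252 in MH63 root, with 166 PETs over 679 kb, whereas chr12:18529007-18548029 led in ZS97 root with 122 PETs.

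The other 3 leading pairs showed the same range of partners. The region chr10:14761677-14789198 was joined to chr10:14873702-14899545 by 184 PETs in MH63 root and 136 PETs in ZS97 root, and that partner had 8 PETs in MH63 seedling and none listed in ZS97 seedling. The region chr4:15299147-15309921 was joined to chr4:15319399-15362332 by 114 and 189 PETs, with 132 and 162 seedling PETs at the partner in MH63 and ZS97. The region chr11:11307691-11315553 was joined to chr11:11319754-11350857 by 125 and 98 PETs, with 916 and 835 seedling PETs at the partner. A strong contact of a root-only region could thus be with a domain that was busy in seedlings or with one that was hardly listed there. These pairs lead by the lower of the 2 root lists and need not be the strongest of a region in each list. In MH63 root, chr10:14761677-14789198 had more PETs, 241, with chr10:14735814-14753593.

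Pairs of 2 root-only regions numbered 991 over both root lists, 600 of them within a chromosome, of which 212 (35.3%) were found in both varieties. The pair of most PETs, chosen after the values were seen, was chr4:15558103-15580476 with chr4:15581098-15589044, joined by 71 PETs in MH63 root and 67 PETs in ZS97 root. The leading region chr12:19456834-19485252 was joined to chr12:19444130-19451117 by 50 PETs in MH63 root and 63 PETs in ZS97 root and to chr12:19394037-19407073 by 71 and 46 PETs. For chr4:15558103-15580476, 29.9% of MH63 root PETs and 35.2% of ZS97 root PETs went to root-only partners, the highest share among the 10 strongest regions.

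Root-only regions had fewer partners than shared ones, as well as fewer PETs. The median was 11 partners in MH63 root, against 15 for shared regions, and 10 partners in ZS97 root, against 20. The 5 best connected were chr12:19456834-19485252 with 151 partners summed over both root lists, chr11:16593408-16632784 with 143, chr11:9689465-9703836 with 134, chr4:15558103-15580476 with 109 and chr10:14761677-14789198 with 108. All 5 had more partners in ZS97 root than in MH63 root, where the list has fewer loops. The leading partner was on another chromosome for 11.1% of root-only regions in MH63 root and 14.8% in ZS97 root. This was not set beside shared regions.

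Loops to other chromosomes held 19.9% of the PETs of root-only regions in MH63 root and 31.9% in ZS97 root, against 14.2% and 33.1% for shared regions. Weak regions had more of their PETs in such loops, and the root-only regions were the weaker set. Within each class of PETs the share was lower for root-only regions in both varieties. It ran from 39.1% against 41.4% at 10 to 19 PETs to 8.72% against 10.2% at 100 or more in MH63 root, and from 52.2% against 60.6% to 19.96% against 28.6% in ZS97 root. Most of these loops were at the minimum of 2 PETs, 70.4% in MH63 root and 84.6% in ZS97 root.

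Within a chromosome, the loops of root-only regions were shorter. Their median span was 92.0 kb, against 107 kb for shared regions, in MH63 root and 124 kb, against 159 kb, in ZS97 root. Weighted by PETs the medians were 56.4 against 68.5 kb in MH63 root and 52.7 against 57.4 kb in ZS97 root. Contacts within 20 kb took 17.5% of the PETs of root-only regions, against 11.5% for shared regions, in MH63 root and 16.2% against 10.9% in ZS97 root. Spans are measured between anchor midpoints, so wide regions have longer spans at the same gap, and the part of width in the difference was not tested. Contacts over 1 Mb took 4.31% of PETs of root-only regions in MH63 root and 6.09% in ZS97 root, against 4.88% and 6.18% for shared regions.

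Long contacts of root-only regions that recurred in both varieties were few. Of 567 pairs within a chromosome with 10 or more PETs in both root lists, 9 spanned over 1 Mb, and the median span was 33.9 kb. The longest joined chr4:15558103-15580476 to chr4:13074392-13104735 over 2480 kb, with 14 PETs in MH63 root and 13 PETs in ZS97 root. Next came chr11:16593408-16632784 to chr11:18829603-18900577 over 2252 kb, with 44 and 15 PETs, and chr10:14761677-14789198 to chr10:16945665-17047395 over 2221 kb, with 59 and 22 PETs. The domain chr12:17578538-17728023 was the far end of the remaining pair of contacts. It was joined to chr12:19456834-19485252 over 1818 kb by 84 PETs in MH63 root and 11 PETs in ZS97 root, and to chr12:19394037-19407073 over 1747 kb by 41 and 24 PETs. That domain had 7414 PETs in MH63 seedling and 3814 PETs in ZS97 seedling.

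Contacts agreed between the varieties mainly where they were strong and within a chromosome. Of the pairs of a root-only region with any partner, counted over both root lists, 12.2% were found in both (11.8 to 12.7), against 9.76% for shared regions. Within a chromosome the shares were 29.7% and 28.2%, for pairs of 5 or more PETs in either list 63.5% and 56.6%, and for pairs of 10 or more 79.1% and 72.7%. Between chromosomes only 0.158% of pairs recurred (21 of 13326), against 0.191% for shared regions. The leading partner was the same in both root lists for 512 of the 1027 root-only regions (49.9%), a share not given for shared regions.

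Of the 5 recurring contacts between chromosomes that held most PETs, 3 involved short root-only regions. The strongest, by the lower of the 2 roots, joined chr12:14008658-14009273, which is 616 bp wide, to chr10:14873702-14899545 with 22 PETs in MH63 root and 15 PETs in ZS97 root. A neighbouring region of 458 bp, chr12:14006701-14007158, was joined to the same place by 13 and 8 PETs. The region chr2:11067114-11067470, 357 bp wide, was joined to chr11:791087-816628 by 9 and 8 PETs. The others involved root-only regions of ordinary width. They were chr5:17879035-17881637 (2603 bp) with chr4:19271963-19286514, at 6 and 4 PETs, and chr6:6742575-6744961 (2387 bp) with chr9:7021774-7038305, at 27 and 4 PETs. The region on chromosome 10 that recurs here is also the partner of chr10:14761677-14789198 named above. Reads from repeated sequence can be placed at several positions, and whether that touches the 3 short regions was not tested.

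Finally, the contacts across a root-only region were followed into seedlings. For 434 root-only regions, both root lists held partners with a seedling loop on both sides within 1 Mb, giving 1916 pairs of a left and a right partner. In the roots 79.3% of these pairs in MH63 and 77.5% in ZS97 were also joined to each other. In the seedlings, where the region between them has no listed loop, 45.7% of the same pairs were joined in MH63 and 34.6% in ZS97. The pairs were chosen on the root lists, so a lower share in seedlings is in part built in. For shared regions, with 33914 such pairs, the shares were 49.1% in MH63 root, 48.3% in ZS97 root, 37.9% in MH63 seedling and 25.6% in ZS97 seedling. At 246 of the 434 root-only regions (56.7%), at least 1 pair of flanking partners was joined over the region in both seedling lists. The share was 65.9% for 3396 shared regions. These shares are not a like comparison, since shared regions had more pairs per region and so more chances of a joined pair. Per pair, the seedling shares were the higher ones for root-only regions, at 45.7% against 37.9% in MH63 and 34.6% against 25.6% in ZS97. The root shares per pair were higher for them as well. Contacts across root-only regions were thus listed in seedlings although none was listed at the regions themselves.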

How the data were processed

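H3K27me3 ChIA-PET loop lists of 8 samples in 4 groups were used, with 2 replicates pooled by the authors in each list. The deposited PETs per loop and tags per anchor are whole-number counts, not normalised. The deposited distance between anchors is in bp. The false discovery rate that the authors gave each loop is a p-value adjusted for multiple tests, and the highest was 0.0499. Which aligner, loop caller and build were used is not given in the sources used here. Columns have no header, so their content was read from their values.

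Anchors that overlapped by at least 1 bp were merged, a loop end was assigned by its anchor midpoint, and PETs were summed per region with pandas 2.3.3 and numpy 2.4.6 in Python 3.11.15. A loop between 2 regions counts for both. Intervals at 95% are Clopper-Pearson for shares and binomial order statistics for medians (scipy 1.17.1), and cover counting error only. Figures were drawn with matplotlib 3.10.9. The steps were tested on simulated lists.

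The members, the comparison sets and the alternatives were chosen with earlier results of these data known. Regions were named by rule: the 10 highest in the lower root list per 100000 PETs, the 5 widest, the 5 clusters of most members, the 5 of most partners, the 5 strongest and the 5 longest recurring pairs within a chromosome, and the 5 strongest between chromosomes. No per-replicate value is used, so the PETs carry no replicate error.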

Additional observations from a re-analysis of the deposited data

How the results depend on the processing

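Under the 11 other choices of regions, root-only regions were set beside all other root regions. Their neighbours were root-only more often, more of their PETs reached root-only regions, and they were narrower. The setting without a seedling-looped region within 5 kb is not a like check of neighbours (22.3% against 7.07%). Its filter bars root-only regions close to seedling-looped ones, and its comparison set holds the regions the filter dropped. The values themselves moved with the strictness of the rule. With 20 PETs required in both roots there were 665 root-only regions, with a median width of 3385 bp, 21.7% on chromosomes 11 and 12, 19.3% of neighbours root-only, 54.3% in a cluster, 9.52% of PETs to other root-only regions, 22.1% to other chromosomes, a median span of 108 kb and 13.4% of pairs in both varieties. With 5 PETs the width was 2367 bp, the share in a cluster 64.8%, PETs to other chromosomes 26.2% and recurring pairs 11.7%. Without regions that have a seedling-looped region within 5 kb there were 614 regions, with 50.8% in a cluster, 8.49% of PETs to root-only regions, 26.6% to other chromosomes, a span of 111 kb and 11.6% of recurring pairs. Allowing up to 2 seedling PETs per list gave 10.3% of PETs to root-only regions and 25.2% to other chromosomes.

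In MH63 alone there were 2207 regions, with a width of 1858 bp, 31.5% of neighbours root-only, 78.8% in a cluster, 13.4% of PETs to root-only regions, 22.5% to other chromosomes, a span of 93.7 kb and 9.21% of recurring pairs. In ZS97 alone there were 2537, with 2283 bp, 36.6%, 79.4%, 17.8%, 33.4%, 122 kb and 10.2% for the same quantities in the same order. With a false discovery rate below 0.01 the width was 2926 bp, PETs to root-only regions 11.4%, to other chromosomes 11.7%, the span 73.1 kb and recurring pairs 20.7%. With loops within a chromosome alone, the width was 3292.5 bp, the share on chromosomes 11 and 12 20.9%, PETs to root-only regions 13.03%, the span 109 kb and recurring pairs 31.9%, and no share to other chromosomes can be had. With anchors within 1 kb merged, 19.6% of neighbours were root-only, 54.3% of regions were in a cluster, 8.43% of PETs reached root-only regions, 25.6% other chromosomes, and 11.6% of pairs recurred. With the root minimum scaled on total PETs, 24.7% of PETs reached other chromosomes. Weighted by PETs the median span was 55.3 kb. Clusters joined over 50, 200 and 500 kb held 42.6%, 76.3% and 93.2% of regions. Without chromosome 4, a setting added after seeing the data, 21.4% lay on chromosomes 11 and 12, 19.9% of neighbours were root-only, 9.02% of PETs reached root-only regions, 23.0% other chromosomes, and 13.1% of pairs recurred. The cause of these shifts was not tested.

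No paired analysis was possible because each list pools both replicates of a group; leaving out a replicate could not be run for the same reason. Depth limits the weakest regions, since 362 of the 1027 had 10 to 19 PETs in the lower root list, and a loop of fewer than 2 PETs is never listed.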

Other observations

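Regions that were root-only in 1 variety split differently in the other, here into 4 classes that do not overlap. Of the 2207 regions root-only in MH63, 1027 (46.5%) were root-only in ZS97 as well and 788 (35.7%) had no listed ZS97 root loop. A further 264 (11.96%) had fewer than 10 ZS97 root PETs and no ZS97 seedling loop, and 128 (5.80%) had loops in both ZS97 root and ZS97 seedling. Of the 2537 regions root-only in ZS97, 1027 (40.5%) were root-only in MH63 as well and 713 (28.1%) had no listed MH63 root loop. A further 39 (1.54%) had fewer than 10 MH63 root PETs and no MH63 seedling loop, and 758 (29.9%) had loops in both MH63 root and MH63 seedling.

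The root regions with a seedling loop, called shared regions, to which root-only regions sent 10 or more PETs were wide, with medians of 15531 bp in MH63 and 12136.5 bp in ZS97, against 4264 and 4570.5 bp for other shared regions. These partners were picked on the PETs of the other variety and their loops to root-only regions were left out. Their median log2 ratio of root over seedling PETs was 0.11 in MH63, against 0.18 for other shared regions, and 0.21 in ZS97, against -0.35. The order of the 2 sets was therefore opposite in the 2 varieties.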
